A study of Mus musculus with 160 samples.

Results

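The expression of 10 genes of the platelet-derived growth factor (PDGF) axis and of mural cells was measured in 8 sorted cell populations of the mouse aorta-gonads-mesonephros (AGM), the embryonic region around the dorsal aorta where the first hematopoietic stem cells arise. The genes were the ligands Pdgfa, Pdgfb, Pdgfc and Pdgfd, the receptors Pdgfra and Pdgfrb, and the mural cell genes Cspg4, Acta2, Rgs5 and Tagln. They were chosen by symbol, by matching each Ensembl gene ID of the count table to the mouse GENCODE annotation, and all 10 were found among 46078 genes.

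All cells came from embryos with 1 Gata3-GFP allele, in which green fluorescent protein (GFP) reports the transcription factor gene Gata3, and every embryo carried the label Gata3-GFP +/-. Endothelial cells (EC) were sorted as Cdh5+ and negative for CD41 and CD45. Hematopoietic cells (HC) were sorted as positive for CD41, CD45 or both. EC and HC were from embryos at E10.5. Mesenchymal cells (MC, sorted as Pdgfrb+) and cells of the sympathetic nervous system (SNS, sorted as Ngfr+) were from E11.5. Each cell type was split into Gata3-GFP+ and Gata3-GFP- cells, and 20 pools of 20 cells were sequenced from each of the 8 populations. The MC gate takes any Pdgfrb+ cell and is therefore wider than mural cells, and stage and cell type cannot be told apart between EC or HC and MC or SNS. The labels tie no pool to an embryo, so p-values measure only the spread between pools. The paper took its EC and HC cells from fewer biological replicates than pools, each of several embryos. Pools of these populations therefore share embryos and are not independent embryos, and those of MC and SNS may share them too. In pools, fewer cells that express a gene and less RNA per cell cannot be told apart.

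All but 7 of the 160 pools passed those read limits of the study that were applied here, with 1400824 to 16004756 counts on genes per pool (median 3801233). Among these, 12 pools went against their labels. In 6 MC pools (3 Gata3-GFP+ and 3 Gata3-GFP-) the raw count of Ngfr, the SNS sort marker, exceeded that of Pdgfrb, the MC sort marker, and in 6 SNS pools (3 and 3) Pdgfrb exceeded Ngfr. Gata3 ran against the GFP labels in them too. It stood at 16.4 to 80.96 CPM in the 3 MC pools labelled Gata3-GFP+ and 123.997 to 398 CPM in the 3 labelled Gata3-GFP-, and at 10.2 to 24.2 and 45.8 to 51.5 CPM in the SNS pools so labelled. The 6 MC pools had 0.961 to 12.5 counts-per-million units (CPM) of Pdgfrb and 29.1 to 332 CPM of Ngfr. They were left out of all values for MC except where stated, which left 17 Gata3-GFP+ and 14 Gata3-GFP- MC pools. The 6 SNS pools stayed in the tests, and values without them (15 and 16 pools) are given beside each SNS result. The other populations had 19 Gata3-GFP+ and 20 Gata3-GFP- EC pools and 20 HC pools of each kind.

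Defining markers followed the remaining labels in most populations. Median Cdh5, which encodes VE-cadherin, was 1018 CPM in Gata3-GFP+ EC, 425 CPM in Gata3-GFP- EC and 0 in both MC populations. Ptprc, which encodes CD45, reached medians of 202 CPM in Gata3-GFP+ HC and 421 CPM in Gata3-GFP- HC, while Itga2b, which encodes CD41, reached 226 and 8.63 CPM there. Col1a1, a collagen of mesenchyme, had medians of 1255 CPM in Gata3-GFP+ MC and 790 CPM in Gata3-GFP- MC. Among markers of pericytes in the adult, the median of Kcnj8 was 43.8 CPM in Gata3-GFP+ MC and 28.1 CPM in Gata3-GFP- MC, that of Abcc9 was 37.2 and 15.3 CPM, and Higd1b had no count in any MC pool used.

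PDGFs are secreted dimers that signal through the receptor tyrosine kinases PDGFRα and PDGFRβ. PDGF-A and PDGF-C act mainly through PDGFRα, PDGF-B binds both receptors, and PDGF-D acts mainly through PDGFRβ. In developing vessels, endothelial PDGF-B is known to recruit PDGFRβ-expressing mural cells, the pericytes and smooth muscle cells that wrap the endothelium.

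Promoter sequences were compared because smooth muscle genes such as Acta2 and Tagln are known targets of serum response factor, which binds the CArG box, and because the cells were sorted on a GATA factor reporter. The table of RefSeq promoters used here (GRCm38.p6) gave 8 promoters for 7 of the 10 genes, that is all but Pdgfb, Pdgfrb and Tagln. The 250 bases before each RefSeq start were searched on both strands for the CArG box, for the CArG box with 1 of its middle bases changed to C or G, and for GATA words. These were AGATAA or AGATAG, and also TGATAA or TGATAG. The 4 promoters with a match are shown 5′ to 3′ on the strand of the gene, with the match in capitals.

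Acta2, chr19:34255374-34255623, minus strand, with 2 CArG boxes of 1 changed base: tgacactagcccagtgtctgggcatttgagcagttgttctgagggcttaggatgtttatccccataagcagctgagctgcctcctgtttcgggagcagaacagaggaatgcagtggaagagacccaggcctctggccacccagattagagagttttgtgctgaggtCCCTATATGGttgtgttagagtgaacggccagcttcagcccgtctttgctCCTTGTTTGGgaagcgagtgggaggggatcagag
Pdgfc, chr3:81036166-81036415, plus strand, with 1 unchanged CArG box: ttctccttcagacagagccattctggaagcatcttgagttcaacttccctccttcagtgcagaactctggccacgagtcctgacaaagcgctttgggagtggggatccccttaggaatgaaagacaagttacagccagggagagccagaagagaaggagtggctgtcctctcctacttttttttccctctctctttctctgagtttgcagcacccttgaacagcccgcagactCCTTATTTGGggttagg
Rgs5, chr1:169655251-169655500, plus strand, with 1 GATA word on its other strand: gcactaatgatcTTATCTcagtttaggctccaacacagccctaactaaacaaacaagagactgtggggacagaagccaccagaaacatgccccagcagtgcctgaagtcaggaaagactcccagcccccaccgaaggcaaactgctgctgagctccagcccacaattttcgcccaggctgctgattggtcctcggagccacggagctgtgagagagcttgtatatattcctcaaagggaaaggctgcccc
Pdgfd, chr9:6168236-6168485, plus strand, with 1 GATA word: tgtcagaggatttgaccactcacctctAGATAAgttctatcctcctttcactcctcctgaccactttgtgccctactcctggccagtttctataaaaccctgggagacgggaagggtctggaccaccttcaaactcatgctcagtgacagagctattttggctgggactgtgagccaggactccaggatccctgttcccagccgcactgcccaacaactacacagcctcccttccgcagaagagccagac

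The Acta2 matches CCCTATATGG and CCTTGTTTGG lay 84 to 75 and 34 to 25 bases before the start, and the Pdgfc match CCTTATTTGG lay 17 to 8 bases before it. The GATA match in Rgs5 (TTATCT) lay 238 to 233 bases before the start and that in Pdgfd (AGATAA) 223 to 218 bases before it. Of 32851 mouse promoters of this length, 1.467% held an unchanged CArG box, 8.593% one with at most 1 changed base and 26.54% a GATA word. The 2 promoters of Pdgfa and those of Pdgfra and Cspg4 held none of these. A match is a stretch of letters and no measure of binding.

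**Figure D1:**
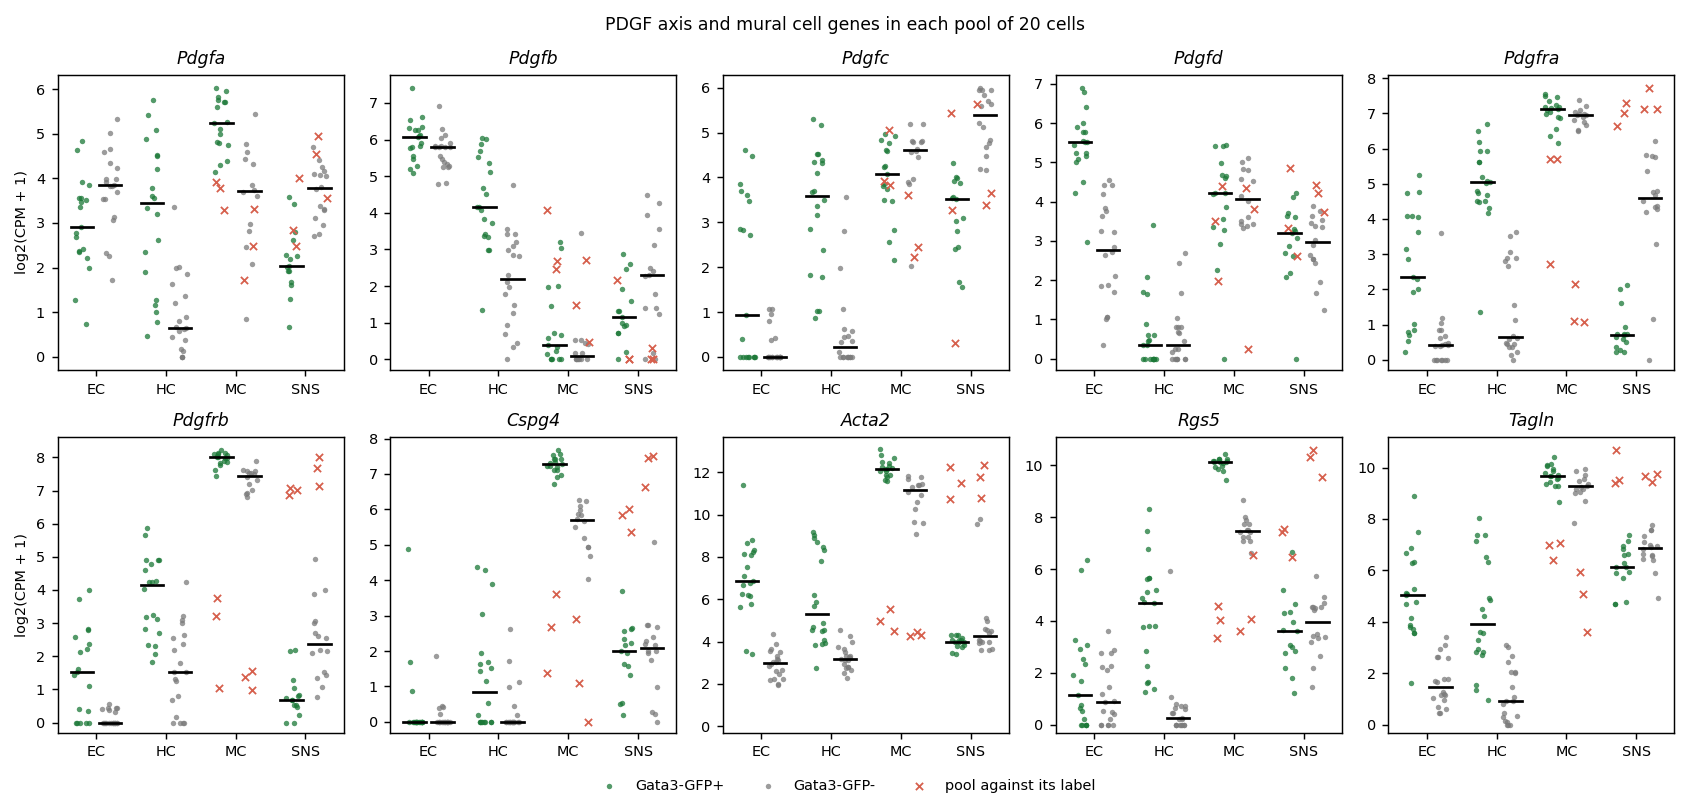
Level of each of the 10 genes, as log2(CPM + 1), in every pool that passed the read limits, by cell type and GFP. Each point is 1 pool of 20 cells, bars are medians of the pools that follow their labels, and crosses are the 12 pools against their labels; Pdgfb is high in both EC populations, while Rgs5 and Cspg4 separate Gata3-GFP+ from Gata3-GFP- MC.

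Pdgfb, at 15:79995874-80014977 on the minus strand of GRCm38 (ENSMUSG00000000489), had its highest levels in EC. It ranged from 33.3 to 168 CPM (median 65.7) in Gata3-GFP+ EC and from 26.4 to 119.4 CPM (median 54.2) in Gata3-GFP- EC. Its medians were 16.8 CPM in Gata3-GFP+ HC (1.55 to 65.4) and 3.61 CPM in Gata3-GFP- HC (0 to 25.9). Both EC populations lay above every MC pool. In MC it reached 8.27 CPM at most in Gata3-GFP+ pools (median 0.302) and 9.82 CPM at most in Gata3-GFP- pools (median 0.0618), with no count in 5 of 17 and 7 of 14 pools. Without the 6 pools against their labels, the SNS medians were 1.25 CPM (Gata3-GFP+) and 3.89 CPM (Gata3-GFP-).

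Over the mean of the Gata3-GFP+ and Gata3-GFP- populations, Pdgfb was higher in EC than in MC by 5.88 on the log2 scale (SE 0.46, adjusted p = 1.3e-23, edgeR quasi-likelihood test). EC exceeded HC by 2.30 (adjusted p = 6.8e-10), and HC exceeded MC by 3.58. Changes between cell types were frequent among all genes. Past an adjusted p of 0.01 and a log2 fold change beyond 0.1, here called changed, were 47.4% of all genes tested between EC and MC, 50.3% between EC and HC and 59% between HC and MC. Of the 10 genes, 9, 6 and 10 were changed in these comparisons. Pdgfrb is among those counted, but as the MC sort marker it is a description wherever MC is compared. Against SNS, 9 were changed in EC (51.5% of all genes), 10 in HC (57.9%) and 9 in MC (27.9%), and without the 6 SNS pools against their labels 7 (51.4%), 7 (56.7%) and 9 (33.2%).

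Pdgfd, whose product needs proteolytic activation, also had its highest level in EC, but in the Gata3-GFP+ cells. It ranged from 6.88 to 117.9 CPM (median 44.6) in Gata3-GFP+ EC and from 0.26 to 22.3 CPM (median 5.86) in Gata3-GFP- EC. The MC populations were close to each other, with medians of 17.5 CPM (0 to 42.2) and 15.8 CPM (9.07 to 33.5). Over both GFP states EC and MC differed by 0.13 on the log2 scale, which did not pass the test (adjusted p = 0.74). In HC it was near 0, with medians of 0.269 and 0.267 CPM, and EC exceeded HC by 4.24 (adjusted p = 1.5e-22).

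Pdgfa, a ligand of PDGFRα, was highest in Gata3-GFP+ MC, where it ranged from 16.7 to 64.1 CPM (median 37). The medians of Gata3-GFP- EC (13.4 CPM), Gata3-GFP- SNS without the 6 pools (12.7), Gata3-GFP- MC (12.1) and Gata3-GFP+ HC (9.95) lay close together. Gata3-GFP+ EC had a median of 6.49 CPM, Gata3-GFP+ SNS of 3.09 CPM without the 6 pools, and Gata3-GFP- HC of 0.572 CPM. EC lay below MC by 1.0 on the log2 scale (SE 0.29, adjusted p = 0.0016). Of the exonic bases of Pdgfa, 26.1% overlap 6330403L08Rik on the other strand, and whether the counting used strand is not stated. Reads there may therefore belong to either gene or have been left out as ambiguous.

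Pdgfc, whose product also acts through PDGFRα, was highest in the Gata3-GFP- SNS, at 16.9 to 62.7 CPM (median 41.5) without the 6 pools. MC followed with medians of 23.5 CPM in Gata3-GFP- and 15.8 CPM in Gata3-GFP+ pools. Gata3-GFP+ HC (11.1 CPM) and Gata3-GFP+ SNS (10.4 CPM) were close in median, and 14 of 20 Gata3-GFP- EC pools had no count. EC lay below MC by a log2 fold change of -4.01.

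Both receptor genes were highest in MC. Pdgfra ranged from 70.2 to 186 CPM (median 137.6) in Gata3-GFP+ MC and from 89.8 to 165 CPM (median 122.7) in Gata3-GFP- MC, so the range of the Gata3-GFP- pools lay inside that of the Gata3-GFP+ pools. Pdgfrb, used to sort MC and to choose these pools, ranged from 172 to 296 CPM (median 257) and from 111.4 to 236 CPM (median 174). Both receptors were low in EC. Pdgfra had medians of 4.13 CPM in Gata3-GFP+ EC and 0.348 CPM in Gata3-GFP- EC, against 1.91 CPM and 0 for Pdgfrb. Gata3-GFP+ HC stood between, at medians of 31.9 CPM for Pdgfra and 16.7 CPM for Pdgfrb. Gata3-GFP- SNS pools that followed their labels held Pdgfra at a median of 23.4 CPM (0 to 73.3) and Pdgfrb at 4.23 CPM. EC lay below MC by log2 fold changes of -5.47 for Pdgfra and -8.11 for Pdgfrb. MC exceeded SNS by 1.95 for Pdgfra and 2.85 for Pdgfrb with all SNS pools and by 4.59 and 6.25 without the 6 against their labels, which held 98.4 to 209.6 CPM of Pdgfra.

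Per length of exon, the levels of different genes can be set beside each other, though the length includes bases that overlap other genes, as in Pdgfa. Among the ligand genes, median CPM per kilobase in Gata3-GFP+ EC was 15.8 for Pdgfb, 14.1 for Pdgfd, 2.08 for Pdgfa and 0.179 for Pdgfc. In Gata3-GFP- EC the level of Pdgfb (13) stood above Pdgfa (4.30) and Pdgfd (1.86). In Gata3-GFP+ MC the receptor level was 46.9 for Pdgfrb and 13.7 for Pdgfra, beside 11.9 for Pdgfa. Gata3-GFP- MC had 31.8 for Pdgfrb and 12.2 for Pdgfra, with Pdgfd (5.02), Pdgfc (4.61) and Pdgfa (3.89) at similar ligand levels. Of the ligand genes, Pdgfb had its highest medians in both EC populations and Pdgfd its highest in Gata3-GFP+ EC. Both receptor genes had their highest medians in MC, which for Pdgfrb is a description, since it was used to sort MC and to choose the pools.

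**Figure D2:**
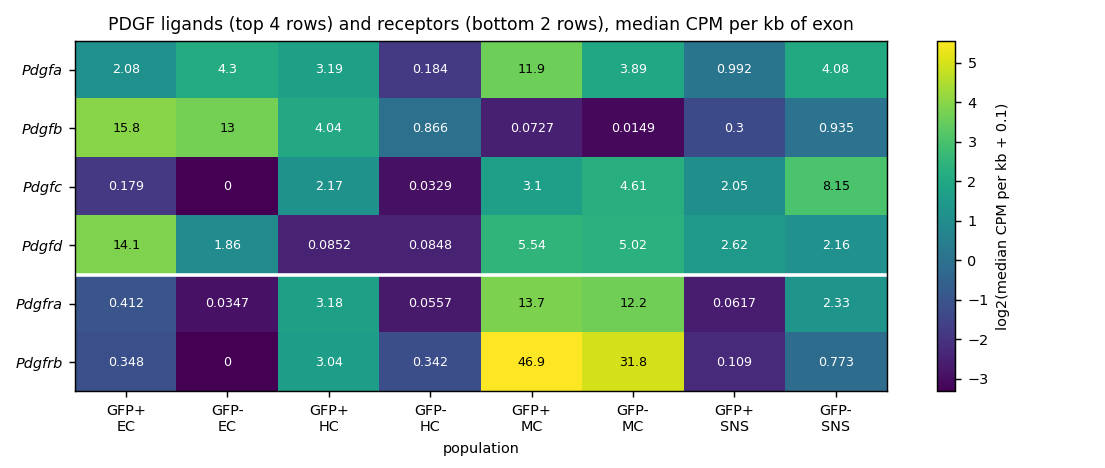
Median CPM per kilobase of exon of the 4 ligand genes and 2 receptor genes in the 8 populations, printed in each cell, with colour as log2(median + 0.1). Columns are populations without the pools against their labels. Pdgfb reads 15.8 and 13 in EC, and Pdgfrb, the MC sort marker and so a description there, reads 46.9 and 31.8 in MC.

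The 4 mural cell genes had their highest levels in MC. Cspg4, which encodes the proteoglycan NG2 on pericytes, ranged from 103.7 to 202 CPM (median 154.96) in Gata3-GFP+ MC and from 15.3 to 75.3 CPM (median 50.6) in Gata3-GFP- MC, while 16 of 19 Gata3-GFP+ EC pools had no count. Acta2, smooth muscle α-actin, had medians of 4588 CPM (3084 to 8891) and 2311 CPM (544 to 3599). Rgs5, a regulator of G protein signalling found in pericytes, had medians of 1125 CPM (693 to 1366) and 176 CPM (97.6 to 406). Tagln, the actin-binding protein SM22α, had medians of 823 CPM (409 to 1374) and 618 CPM (228 to 993). EC lay below MC by log2 fold changes of -7.03 for Cspg4, -6.06 for Acta2, -6.49 for Rgs5 and -5.69 for Tagln. SNS pools that followed their labels had medians of 15 and 18.2 CPM of Acta2, but 69.7 and 115.1 CPM of Tagln. MC exceeded SNS by 2.26 for Cspg4, 2.45 for Acta2, 2.37 for Rgs5 and 1.68 for Tagln, and by 4.36, 6.25, 4.69 and 2.90 without the 6 SNS pools. Pcsk7 and Gm48529 lie opposite Tagln and overlap 5.43% and 62.4% of its exonic bases. As for Pdgfa, reads there may belong to another gene or have been left out as ambiguous, which limits the levels and tests of Tagln.

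Gata3-GFP+ and Gata3-GFP- MC were compared next, which asks what sets the Gata3-expressing part of the Pdgfrb+ cells apart. Rgs5, Cspg4, Acta2 and Pdgfa were higher in the Gata3-GFP+ MC, while Pdgfra, Tagln and the other ligand genes did not pass the test. Of the 9 genes other than Pdgfrb, which chose the pools, 4 were changed and higher, beside 10.4% of all genes tested changed and 5.52% changed and higher. Gata3 itself was higher by 1.88 on the log2 scale, which is a description, since its reporter was used to sort the 2 populations.

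Rgs5, at 1:169655501-169695813 on the plus strand (ENSMUSG00000026678), had the highest fold of the 10 genes. Its mean was 1092 ± 155.5 CPM (SD, n = 17) in Gata3-GFP+ MC and 193 ± 75.2 CPM (SD, n = 14) in Gata3-GFP- MC, and no Gata3-GFP- pool reached the lowest Gata3-GFP+ pool. The log2 fold change was 2.48 (SE 0.14, adjusted p = 1.6e-14, edgeR). Cspg4, at 9:56865033-56899870 on the plus strand (ENSMUSG00000032911), did not overlap either, with 154.1 ± 25.5 CPM (SD, n = 17) against 48.1 ± 18.8 CPM (SD, n = 14) and a log2 fold change of 1.66 (SE 0.16, adjusted p = 4.4e-09). Groups that did not overlap were found for 0.571% of the genes tested.

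Acta2, at 19:34241090-34255590 on the minus strand (ENSMUSG00000035783), was at 4894 ± 1502 CPM (SD, n = 17) and 2138 ± 1029 CPM (SD, n = 14). Its log2 fold change was 1.17 (SE 0.22, adjusted p = 0.00016), and 14 of 17 Gata3-GFP+ pools exceeded the highest Gata3-GFP- pool. Pdgfa rose by 1.40 on the log2 scale (SE 0.33, adjusted p = 0.0021). All 17 of its Gata3-GFP+ pools lay above the Gata3-GFP- median, 7 of them above every Gata3-GFP- pool. Tagln differed by 0.38 (SE 0.15, adjusted p = 0.086), Pdgfra by 0.13 (SE 0.11, adjusted p = 0.50), Pdgfd by 0.08 (SE 0.36, adjusted p = 0.92), Pdgfb by 0.88 (SE 0.94, adjusted p = 0.60) and Pdgfc by -0.44 (SE 0.28, adjusted p = 0.32). The log2 fold change of Pdgfrb, 0.57, is a description, since Pdgfrb chose the pools, and with all passing MC pools it was 0.61 (adjusted p = 0.48).

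The pools against their labels and the choice of fit decide part of these calls. With the 6 MC pools put back, 4.36% of all genes and 2 of the 10 genes were changed, Pdgfa (1.41, adjusted p = 0.0053) and Rgs5 (2.46, adjusted p = 0.00025), while Cspg4 (1.70, adjusted p = 0.011) and Acta2 (1.21, adjusted p = 0.19) were not. In 1 fit of all 8 populations, which shares 1 spread per gene among very different cell types, edgeR called 0 of the 10 genes in MC, with 3 at an unadjusted p under 0.05, and 6.19% of all genes. DESeq2 (Wald test on the main MC pools) called 6 of the 10, Pdgfrb among them, and 12.5% of all genes. Summed skeletal and cardiac muscle markers moved with GFP in MC, with medians of 1046 CPM against 192 CPM. Of the 8 markers, 6 had a median of 0 in both populations (Myod1, Myf5, Myog, Myh3, Tnnt2 and Nkx2-5). That left the actin genes Acta1 and Actc1. The part of these markers in the result was not tested.

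**Figure D3:**
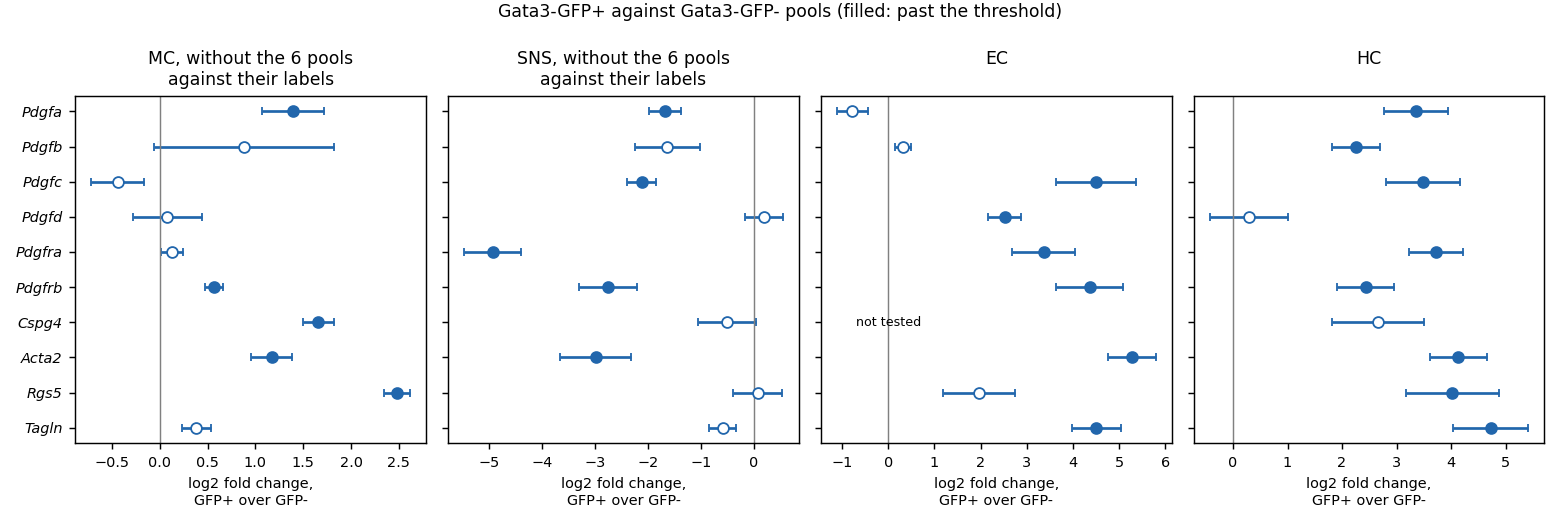
Log2 fold change of Gata3-GFP+ over Gata3-GFP- pools for the 10 genes in each cell type, with error bars of 1 SE, from fits within each cell type, MC and SNS without the pools against their labels. Filled points are changed (adjusted p under 0.01 and beyond 0.1); Rgs5 stands highest in MC at 2.48, while Pdgfa, Pdgfc, Pdgfra, Pdgfrb (a description, as it chose the pools) and Acta2 (resting on 2 pools) are lower in Gata3-GFP+ SNS.

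Other genes of the pathway were taken from lists of known members. The counts in these lists and those below stand beside 10.4% of all genes tested changed in MC and 5.52% changed and higher. Of 10 genes tested that process or bind PDGF ligands, 5 were higher in Gata3-GFP+ MC and none was lower, and the median log2 fold change was 0.53 against 0.01 for all genes tested. They included Pdgfrl, a receptor-like protein (1.72), Nrp1, a co-receptor (0.69), Lrp1, which modulates PDGFRβ (0.61), and Sparc, which binds PDGF-B (0.55). Of 35 signalling genes below the receptors 6 were higher and none lower (median 0.18). The leading ones were Sos2, a Ras activator (1.30), Cblb, a ubiquitin ligase (0.91), and the adaptors Gab1 (0.60) and Shc1 (0.56). Of 9 early response genes 1 was higher, Myc (1.03), a count near the share of all genes.

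Smooth muscle contractile genes outside the 10 were higher in 8 of 16 cases and lower in none (median 0.54), including Myh11, smooth muscle myosin heavy chain (2.68), Tpm2 (0.74), Flna (0.53) and Myl9 (0.52). Of 6 transcriptional regulators of smooth muscle genes, a list of serum response factor, its myocardin-family partners, Gata6 and Foxo4, 3 were higher, the GATA factor gene Gata6 (2.36), Myocd (2.07) and Mrtfb (0.50). Of 11 pericyte genes 7 were higher and none lower (median 1.23), among them Foxs1 (2.07), Heyl (1.85), Mcam (1.53) and Notch3 (0.70). Mesenchyme genes split, with 4 of 15 higher, 4 lower and a median of -0.39. Foxf1 (-7.28) and Foxd1 (-2.16) were lower, and Col1a1 (0.71) and Col3a1 (0.67) were higher.

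Markers of other cells were mostly not changed in MC. Of 6 endothelial markers tested 1 was higher, Esam (2.96), a junction protein also found in mural cells, while the medians of Cdh5, Pecam1, Tie1 and Cldn5 were 0 in both populations. Of 9 sympathetic markers 1 was higher, Hand2 (1.78), and of 2 muscle markers 1, Acta1 (2.12). With so few markers tested, such counts cannot be told from the 10.4% of all genes changed in MC. None of 2 hematopoietic, 4 renal and 1 erythroid markers tested was changed.

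**Figure D4:**
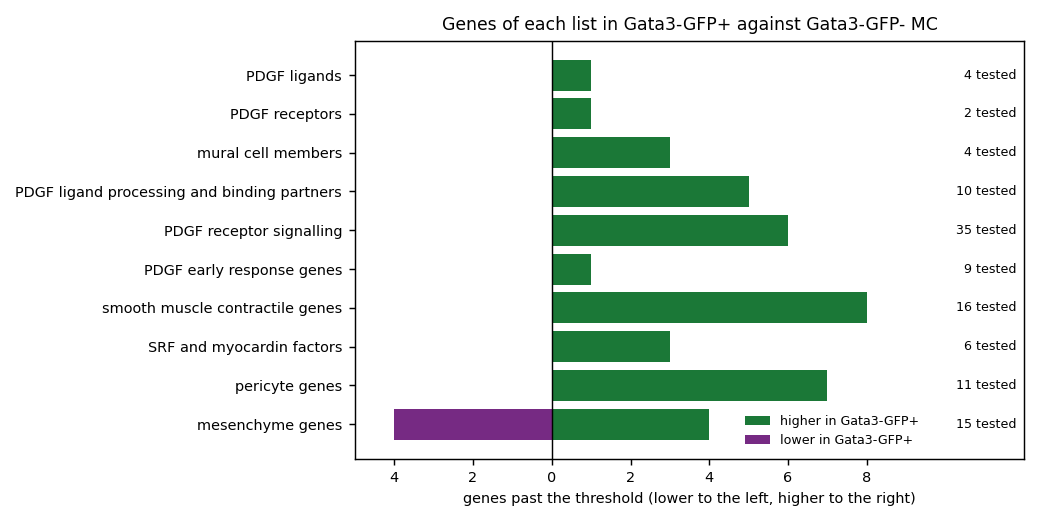
Number of genes of each list that were changed between Gata3-GFP+ and Gata3-GFP- MC, higher to the right and lower to the left of 0, with the number tested at the right edge. Pericyte genes read 7 higher of 11 and smooth muscle contractile genes 8 of 16, while mesenchyme genes read 4 higher and 4 lower of 15. Of all genes tested, 10.4% were changed.

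In EC, GFP+ pools held more RNA of Acta2, Tagln, Pdgfc, Pdgfd and both receptors. Of 9 genes tested 6 were changed, all higher, beside 36% of all genes changed and 19.5% changed and higher. Of the 6, Pdgfc and Pdgfrb passed the count filter only through Gata3-GFP+ pools, so higher was the only call open to them. Cspg4 was too low to be tested. Acta2 had a median of 115.9 CPM (9.63 to 2711) in Gata3-GFP+ EC and 6.88 CPM (2.80 to 19.6) in Gata3-GFP- EC, with a log2 fold change of 5.27 (SE 0.52, adjusted p = 2.5e-11). Tagln had medians of 31.7 and 1.79 CPM (log2 fold change 4.51, SE 0.52, adjusted p = 1.6e-09). The highest Gata3-GFP- pool was exceeded by 17 of the 19 Gata3-GFP+ pools for Acta2 and by 18 for Tagln. Without the Gata3-GFP+ pool at 2711 CPM of Acta2 the log2 fold changes read 4.41 and 3.91.

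Pdgfd was higher in Gata3-GFP+ EC by 2.52 (SE 0.36, adjusted p = 2.1e-07), with 16 of 19 pools above every Gata3-GFP- pool. Pdgfb differed by 0.32 (adjusted p = 0.12) and Pdgfa by -0.78 (adjusted p = 0.054). With libraries scaled to the ERCC spike-ins, where the median of all genes moved by -0.70, these read -0.35 for Pdgfb and -1.46 for Pdgfa (adjusted p = 0.00042). The low genes Pdgfrb (4.36, SE 0.73, adjusted p = 3.1e-06), Pdgfc (4.49, SE 0.87, adjusted p = 3.5e-05) and Pdgfra (3.36, SE 0.67, adjusted p = 6.1e-05) were also higher, from medians of 1.91, 0.91 and 4.13 CPM in Gata3-GFP+ EC. In the same order, 7, 9 and 12 Gata3-GFP+ pools reached 10 counts, against 0, 0 and 1 Gata3-GFP- pools. The values of Pdgfrb and Pdgfc are therefore descriptions. Without the Gata3-GFP- pool at 11.2 CPM of Pdgfra, its log2 fold change read 4.49. Rgs5 missed the threshold (1.96, adjusted p = 0.035).

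Mesenchyme genes stood higher in Gata3-GFP+ than in Gata3-GFP- EC as well. The sum of 15 such genes had medians of 87.6 CPM in Gata3-GFP+ EC and 28.2 CPM in Gata3-GFP- EC, and 5 of 7 tested were higher. Col1a1 had a median of 1.38 CPM in Gata3-GFP+ EC. Summed sympathetic markers (384 against 48.9 CPM) and renal markers (67.6 against 2.50 CPM) also stood higher. In an alternative chosen after the data were seen, the 10 Gata3-GFP+ pools with the highest mesenchyme sums (88.02 to 1602 CPM) were left out. The other 9 had sums of 30.1 to 75.4 CPM, against 7.68 to 95.6 CPM in Gata3-GFP- pools, but their median of 58.7 CPM remained above that of 29.2 CPM. Acta2 (4.63, adjusted p = 4.6e-12), Tagln (3.86, adjusted p = 2.1e-08) and Pdgfd (2.45, adjusted p = 2.4e-05) were higher in this fit, 3 of 7 genes tested, beside 28.3% of all genes changed and 15.1% changed and higher. Pdgfra was not (2.19, adjusted p = 0.024), and Rgs5 turned to -1.16 (adjusted p = 0.30). The part of mesenchymal or other cells in the EC result was not tested.

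Gata3-GFP+ HC held more RNA than Gata3-GFP- HC of 8 of the 10 genes, beside 26.6% of all genes changed and 17.1% changed and higher. Pdgfra showed it in most pools, with a median of 31.9 CPM (1.55 to 101.9) against 0.559 CPM (0 to 11.4), 19 of 20 pools above every Gata3-GFP- pool and a log2 fold change of 3.72 (SE 0.50, adjusted p = 1.4e-07). Among the ligand genes, Pdgfa (3.36, SE 0.59, adjusted p = 1.5e-05), Pdgfc (3.48, SE 0.67, adjusted p = 6.4e-05) and Pdgfb (2.25, SE 0.45, adjusted p = 8.6e-05) were higher, and Pdgfd was not changed (0.29, adjusted p = 0.78). Tagln (4.73, SE 0.69, adjusted p = 6.4e-07), Acta2 (4.13, SE 0.53, adjusted p = 6.9e-08), Rgs5 (4.02, SE 0.85, adjusted p = 0.00022) and Pdgfrb (2.43, SE 0.53, adjusted p = 0.00028) were higher as well, while Cspg4 was not (2.66, adjusted p = 0.012).

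Single Gata3-GFP- HC pools moved some of these values. Rgs5 had 59.5 CPM in 1 such pool against a median of 0.186 CPM, and without that pool its log2 fold change read 7.40 (SE 0.74). Pdgfc read 4.39 without the pool at 10.8 CPM, and without it or the pool highest in Cspg4, Cspg4 passed the threshold (2.87, adjusted p = 0.0082, and 3.54, adjusted p = 0.0013).

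Here too markers of other cells moved with GFP. Median Col1a1 was 45.2 CPM in Gata3-GFP+ HC and 3.84 CPM in Gata3-GFP- HC, and 10 of 15 mesenchyme genes were higher and none lower. Their sum had medians of 379 and 44.4 CPM, and 19 of 20 Gata3-GFP+ pools exceeded the highest Gata3-GFP- pool. Of 13 sympathetic markers 12 were higher (median sum 164 against 15.9 CPM), as were 7 of 10 endothelial and 5 of 5 renal markers, while 7 of 8 hematopoietic markers were lower. Without the 10 Gata3-GFP+ pools of highest mesenchyme sum (354 to 920 CPM), also chosen after the data were seen, 6 of 9 genes tested were changed and higher, beside 18.1% of all genes changed and 10.6% changed and higher. Pdgfrb (1.73, adjusted p = 0.039) and Rgs5 (2.53, adjusted p = 0.048) were no longer past the threshold. The pools kept had mesenchyme sums of 13.7 to 324 CPM (median 259), still mostly above the Gata3-GFP- range of 4.32 to 153.4 CPM, and the part of these cells in the result was not tested.

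**Figure D5:**
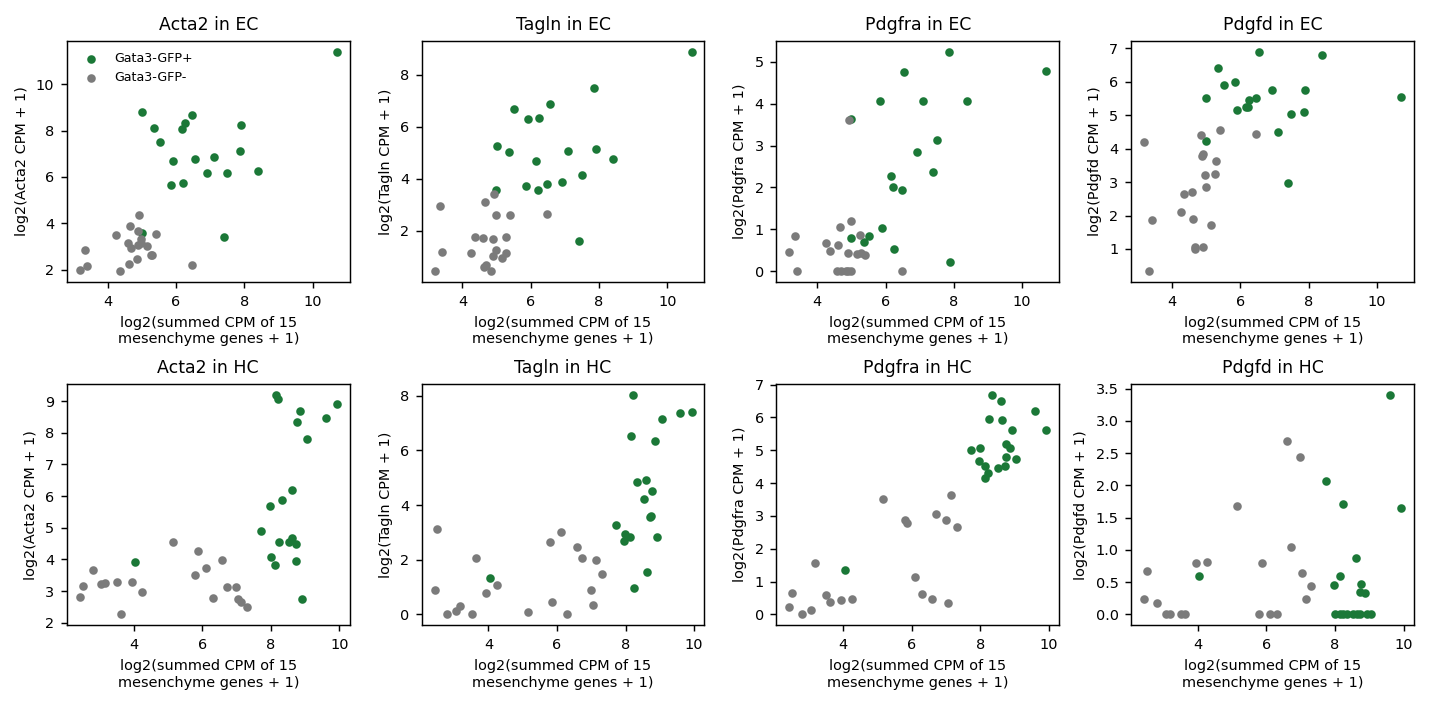
Acta2, Tagln, Pdgfra and Pdgfd against the summed CPM of 15 mesenchyme genes in EC (top) and HC (bottom), both axes as log2(CPM + 1), each point 1 pool. In EC most Gata3-GFP+ pools lie above and to the right of the Gata3-GFP- pools for Acta2 and Tagln, and the ranges of the mesenchyme sums overlap, while in HC nearly all Gata3-GFP+ pools lie to the right of the Gata3-GFP- pools.

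In SNS the ligand genes Pdgfa and Pdgfc were lower in the Gata3-GFP+ pools. With all passing pools their log2 fold changes were -1.56 (SE 0.29, adjusted p = 0.0005) and -1.83 (SE 0.34, adjusted p = 0.00042), and these 2 of the 10 genes were changed beside 3.87% of all genes (1.85% changed and lower). Without the 6 pools against their labels, Pdgfc ran from 1.95 to 18.9 CPM in Gata3-GFP+ pools and from 16.9 to 62.7 CPM in Gata3-GFP- pools, with 14 of 15 Gata3-GFP+ pools below every Gata3-GFP- pool. Its log2 fold change was then -2.12 (SE 0.27, adjusted p = 6e-07) and that of Pdgfa -1.68 (SE 0.30, adjusted p = 9.8e-05).

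Leaving out those pools also brought 2 more genes past the threshold, so that 4 of the 9 genes other than Pdgfrb were changed and lower, beside 10.4% of all genes changed and 5.48% changed and lower. These were Pdgfra (-4.93, SE 0.54, adjusted p = 3.2e-08) and Acta2 (-2.99, SE 0.67, adjusted p = 0.0016). The Acta2 value rested on 2 of the 16 Gata3-GFP- pools, at 753 and 883 CPM, since the other 14 held 11.2 to 33.3 CPM. It read -2.19 (adjusted p = 0.0062) without the higher of these and -0.32 (SE 0.16, adjusted p = 0.19) without both. Pdgfrb (-2.75) is a description here, since it chose the pools. Rgs5 stood at 0.07, Pdgfd at 0.19, Cspg4 at -0.51 and Tagln at -0.59 (adjusted p = 0.11). Mesenchyme genes moved the same way in these pools, with 10 of 13 lower, none higher and median sums of 298 CPM in Gata3-GFP+ and 679 CPM in Gata3-GFP- pools. Their part in the result was not tested. Of the 6 pools left out, those labelled Gata3-GFP- held 742 to 1523 CPM of Rgs5 and those labelled Gata3-GFP+ 87.6 to 187 CPM, the reverse of the order in MC.

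Whether the GFP effect itself differed between cell types was tested by interaction terms in the fit of all populations. Of the 10 genes 2 differed between EC and HC (22.8% of all genes), 2 between MC and SNS (7%) and 6 between EC and MC (12.4%). Without the 6 SNS pools against their labels, 4 differed between MC and SNS (6.51%), Pdgfrb and Acta2 among them, of which Pdgfrb chose the pools and Acta2 (4.17) read 1.496 (adjusted p = 0.099) without the 2 Gata3-GFP- SNS pools highest in it. Pdgfa was among them in all of these comparisons, with its GFP difference lower in EC than in HC and MC and higher in MC than in SNS.

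The genes whose levels followed those of 4 members most closely were found by Pearson's r over the 8 population means of log2(CPM + 1), among 12481 genes. They were Gimap5 (r = 0.979), Ipo11 (0.976) and Rab11a (0.975) for Pdgfb, and Wdr86 (0.982), Cdh3 (0.977) and Bnc2 (0.975) for Pdgfra. For Pdgfrb they were Dcn, Col1a1 and Ddr2 (0.993 each), and for Acta2 Rcn3 (0.995), Pigc (0.986) and Efna3 (0.986). These are descriptions over 8 points, which share cell types, stages and the normalization of 1 table.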

How the data were processed

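RNA from pools of 20 sorted cells was amplified by Smart-seq2 and sequenced as single-end 125-base reads. The deposited file holds raw counts per gene that the authors made with HTSeq. The study's methods name STAR with Ensembl 81 for alignment, while the submitters' processing notes name GSNAP, HTSeq 0.5.3p3 and mm10. The strand setting is not given in the sources used here. Reads outside genes, ambiguous or unaligned were left out of library sizes (11.8%, 15.9% and 22.6% of all reads).

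Pools were kept if genes and ERCC RNAs together took over 500000 reads, genes took over 20% of the reads, and mitochondrial genes and ERCC RNAs took under 20% each. The study also set a minimum number of genes with high coverage, which was not applied here. No MC pool whose raw Ngfr count exceeded Pdgfrb entered the main MC values. Genes that reached 10 counts in 5 or more pools of a comparison were tested with edgeR 4.0.16 (TMM scaling, robust quasi-likelihood fit) in R 4.3.3, with Benjamini-Hochberg adjustment over all genes tested. Each cell type had its own GFP fit, and comparisons between cell types used 1 fit of 147 pools. Levels are CPM on TMM-scaled library sizes, and per-kilobase levels divide by the merged exon length of the gene in GENCODE M21. Mesenchyme sums of the pools left out or kept in EC and HC are on unscaled CPM. Standard errors were taken from the F statistic. The scripts were tested on simulated data. Named were the 10 members, the lists' counts with up to 4 genes of lowest adjusted p in MC, markers, and the 3 genes most like 4 members. The members, the lists and the tests were chosen with earlier results of these data known. Of the listed symbols 2 (Mkl1, Mkl2) are older names of genes listed as Mrtfa and Mrtfb. Alternatives covered scaling, filters, DESeq2 1.42.0, the fold threshold and the pools used, and those without mesenchyme-high pools, without single pools, without the 2 SNS pools highest in Acta2, and of the interactions without SNS pools were chosen after seeing the data.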

Additional observations from a re-analysis of the deposited data

Results flagged for a closer look

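For 10 combinations of gene and cell types, the GFP effect itself differed between cell types in an interaction test (edgeR, 1 fit of all populations). Values are the log2 fold change of Gata3-GFP+ over Gata3-GFP- pools in the first cell type minus that in the second. Between EC and HC (22.8% of all genes changed), Pdgfa differed by -4.05 (adjusted p = 2.2e-09), with GFP differences of -0.78 in EC and 3.36 in HC in their own fits, and Pdgfd by 2.21 (adjusted p = 0.0056). Between MC and SNS (7% of all genes), Pdgfa differed by 2.96 (adjusted p = 0.00013) and Rgs5 by 4.80 (adjusted p = 0.00014). Without the 6 SNS pools against their labels, an alternative chosen after seeing the data, Rgs5 read 2.40 (adjusted p = 0.031), while Pdgfa (3.07), Pdgfra (5.06) and Acta2 (4.17) were past the threshold, beside 6.51% of all genes. Pdgfrb (3.34) is a description, since it chose the pools of both cell types, and Acta2 read 1.496 (adjusted p = 0.099) without the 2 Gata3-GFP- SNS pools highest in it as well. Between EC and MC (12.4% of all genes), Pdgfa differed by -2.14 (adjusted p = 0.0036), Pdgfc by 5.04 (adjusted p = 1.9e-06), Pdgfd by 2.47 (adjusted p = 0.0018), Pdgfra by 3.40 (adjusted p = 0.0035), Acta2 by 4.13 (adjusted p = 0.0011) and Tagln by 4.17 (adjusted p = 4.5e-06). Mesenchyme genes also stood higher in Gata3-GFP+ EC and HC, and their part in these differences was not tested.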

How the results depend on the processing

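Of the values of single members under the alternatives, 702 kept direction and call, 25 lost the call, 29 gained it and 28 turned, and 22 of the counts of genes or members moved by over 1.5 times. The cause was not tested in any case. Genes changed were 1586 in MC, 5424 in EC, 4307 in HC and 624 in SNS. Beyond a log2 fold change of 1 these read 550, 2468, 2457 and 339. With the MC pools against their labels, 698 genes and 2 members were changed in MC, and in 1 fit of 8 populations 0 members. In EC 3 members were changed with at least 10 counts in at least 15 pools. The main fit had 6, beside 36% of all genes. The share of all genes changed under the stricter filter is not given here, so its count is a description. Pdgfc, Pdgfra, Pdgfrb, Cspg4 and Rgs5 fell below that filter and were not tested. Without the 10 pools high in mesenchyme genes 3 members were changed in EC, beside 28.3% of all genes. Without such pools 2708 genes were changed in HC. Without the 6 SNS pools against their labels, 1631 genes and 5 members were changed in SNS, 4 members in the MC against SNS interaction (2 in the main fit). Pdgfrb is among the 5 and among the 4. It chose the pools, so it is a description wherever it is counted without these pools. Also leaving out single pools there gave 1470 to 1557 genes and 5 members in SNS, and leaving out the 2 Gata3-GFP- pools highest in Acta2 gave 1513 and 4. ERCC scaling gave 1013 genes in SNS, 10416 in MC against SNS (5558) and 5768 in the EC against MC interaction (2480).

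ERCC scaling moved the median log2 fold change of all genes by 0.14 in MC (81.8% of changed genes higher, against 53%), -0.70 in EC (14.3%, 54.1%) and 0.35 in SNS (83.3%, 52.1%). It did so by -0.36 for EC against HC (25.3%, 44.3%), -0.38 for EC against MC (24.1%, 49%), -0.97 for EC against SNS (10.8%, 45.8%), -0.61 for HC against SNS (19.8%, 47.6%) and -0.58 for MC against SNS (11%, 45.1%). The interactions moved by -0.66 for EC against HC (8.19%, 36.7%) and -0.85 for EC against MC (8.88%, 54.8%). Values that turned under ERCC scaling were, for GFP, Pdgfb -0.35 in EC, Pdgfd -0.16 in HC and Tagln -0.044 in SNS. Between cell types they were Acta2 -0.19 and Tagln -0.046 (EC against HC), Pdgfd -0.32 (EC against MC) and Pdgfa -0.47 (EC against SNS), and in interactions Cspg4 -0.29 (EC against HC) and Pdgfd -0.26 (MC against SNS). With DESeq2's Wald test, Pdgfd in HC read -0.61 and Tagln in SNS -0.57. Without the 10 pools high in mesenchyme genes, Rgs5 in EC read -1.16 and Pdgfd in HC -0.29. Without the 6 SNS pools, Rgs5 read 0.070 and Tagln -0.59 in SNS, Acta2 0.19 (EC against SNS), Pdgfra 1.13 and Pdgfrb 1.62 (HC against SNS), and Pdgfd -0.10 (MC against SNS interaction). Leaving out in addition the Gata3-GFP- pool highest in Acta2, Cspg4 read 0.20, Rgs5 0.30 and Tagln -0.53 in SNS. With the Gata3-GFP+ pool highest in Rgs5 out instead, Tagln read -0.51. Without both Gata3-GFP- pools highest in Acta2 the values were 0.298, 0.337 and -0.43, and -0.20 for Pdgfd in the MC against SNS interaction. In HC, Pdgfd ranged from -0.56 to 0.29 without single pools. Pdgfb could not be tested in MC without the Gata3-GFP- pool highest in it. No paired analysis was possible because the columns carry the population and no replicate number.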

Other observations

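Within each MC population, 36 pairs of 9 members were correlated over pools on log2(CPM + 1), 72 in all, and none passed an adjusted p of 0.01 (permutation test). At an unadjusted p under 0.05 were 3 pairs in Gata3-GFP+ MC and 1 in Gata3-GFP- MC. The strongest was Acta2 with Tagln in the 14 Gata3-GFP- MC pools, with Pearson's r = 0.72 and Spearman's rho = 0.749 (permutation p = 0.00285, adjusted 0.205), and r = 0.462 without the 2 pools farthest from the median of Acta2.

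Abcc9, an ATP-sensitive potassium channel subunit known from pericytes, had a median of 69.4 CPM in Gata3-GFP- EC, above the medians of 37.2 CPM in Gata3-GFP+ MC and 15.3 CPM in Gata3-GFP- MC.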
